A study of Carica papaya with 12 samples.

Results

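Ripening of the yellow-fleshed papaya variety ‘1B’ was described from the 6 ‘1B’ libraries among the 12 RNA-Seq libraries of the series, 3 of ripe fruit and 3 of unripe fruit. The libraries were taken by variety and stage alone, and no measured value was used to choose them. Each library came from the flesh of a different fruit, and the other 6 libraries were from the red-fleshed variety ‘RB1’ at the same stages. Both varieties are commercial cultivars of Carica papaya grown on 1 plantation in Australia, where ‘1B’ is described as bitter and musty and ‘RB1’ as sweet and floral. The unripe fruits were picked mature green and the ripe fruits when the skin was only partly coloured, and all fruits were treated with the fungicide prochloraz and kept warm for a day before transport. Ripe here therefore means partly coloured rather than fully ripe fruit.

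Papaya is a climacteric fruit, which softens, sweetens and forms its aroma in the days around a burst of respiration and ethylene. Papaya flesh holds little starch, and sugar enters it as sucrose, which sucrose synthase and the invertases of the cell wall and the vacuole split into hexoses. Aroma arises in part from fatty acids, whose products become alcohols, aldehydes and esters, and in part from isoprenoids such as linalool, which plants make by the mevalonate pathway in the cytosol and by a separate pathway in the plastid.

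The reads had been assembled without a genome into 180368 transcripts under 75259 Trinity genes, the groups of related transcripts that the assembler Trinity forms. Counts were summed over the transcripts of each Trinity gene. Total counts were 54741003 to 60099930 in the 6 ‘1B’ libraries and 10949150 to 58163459 in the ‘RB1’ libraries. Levels are CPM, counts relative to the library total, after scaling by the trimmed mean of M-values (TMM), which corrects for a few abundant genes taking a large share of a library. The 28998 genes with enough counts were tested in edgeR by the quasi-likelihood method, the source of every adjusted p given for a gene. A gene was differentially expressed (a DEG) at an adjusted p below 0.05 together with a change of more than 1.5 on the log2 scale, which is 2.83-fold. Names were at hand only for the 77 Trinity genes that appear, by their transcripts, in the list of sugar and volatile pathways. The list was drawn up by the study from ripe fruit of both varieties, these ripe ‘1B’ libraries included, so its counts of DEGs are not independent evidence of any direction. No list of markers for peel, seed, placenta or microbes could be matched to the assembled transcripts, so the make-up of the flesh samples was not checked. In bulk flesh, fewer cells of a type and less RNA per cell cannot be told apart.

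The make-up of the libraries changed with ripening. The 10 most abundant genes took 38.2, 35.1 and 36.0% of the counts in the ripe ‘1B’ fruits, against 46.1, 45.9 and 48.4% in the unripe ‘1B’ fruits. Every ripe library was below every unripe one, and the means differed by -10.4 percentage points (36.4 ± 1.63% in ripe fruit and 46.8 ± 1.36% in unripe fruit, SD, n = 3 each). The 2-sided exact permutation test gave p = 0.1, the smallest value that 3 against 3 libraries allow. It took 48, 66 and 51 genes to hold 50% of the counts in the ripe fruits, against 15, 16 and 12 genes in the unripe fruits. The effective number of genes, the exponential of the Shannon entropy of the shares, was 545, 674 and 603 in ripe fruit and 244, 250 and 214 in unripe fruit (exact permutation p = 0.1). The means differed by 371 in counts, but by 90.6 in TMM-scaled TPM. In ‘RB1’ it was 858, 710 and 483 in ripe replicates 1 to 3, against 478, 468 and 386 in unripe fruit. The ripe ‘RB1’ libraries were also above the unripe ones, replicate 3 only just.

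More genes were detected at a measurable share in the ripe fruits. At least 1 CPM, here without TMM scaling, was found for 15360, 15969 and 15221 genes in ripe ‘1B’ fruit, against 11782, 11849 and 11824 genes in unripe ‘1B’ fruit, at almost equal depth. A minimum of 10 counts in each of the 3 libraries was met by 28046 genes in ripe fruit and 18009 genes in unripe fruit. Among them 239 genes had no count in any unripe library, and 33 genes had at least 10 counts in every unripe library and none in any ripe one. Between the stages 26.4% of the counts moved from some genes to others. The share that differed between a ripe and an unripe library was 25.5 to 28.2% over the 9 pairs, against 4.14 to 8.07% between ripe fruits and 3.73 to 4.27% between unripe fruits. The RNA extracts of the ripe fruits had lower integrity scores than those of the unripe fruits, with every ripe extract below every unripe one, and the part of this difference in the results was not tested.

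**Figure D1:**
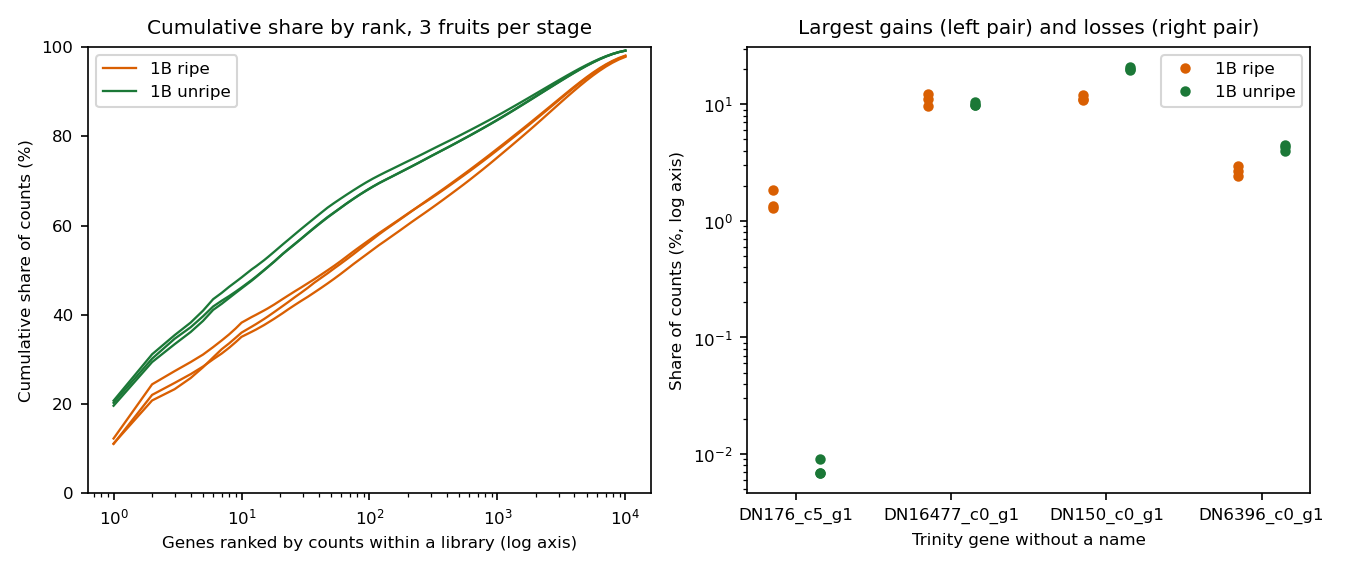
Left, cumulative share of counts (%) against gene rank on a log axis for the 3 ripe and 3 unripe ‘1B’ fruits, 1 line per library. Right, share of counts (%, log axis) of the 4 Trinity genes with the largest gain or loss, 1 point per library. The 10 most abundant genes took 35.1 to 38.2% in ripe and 45.9 to 48.4% in unripe fruit.

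A few genes carried much of the loss of share, while the gain was spread over many genes. The 10 largest losers gave up 15.2 percentage points and the 10 largest gainers took up 4.70, and 61574 genes gained share. The genes with the 2 largest losses and the 2 largest gains are not among the named genes. TRINITY_DN150_c0_g1, the most abundant gene of the unripe libraries, held 12.1, 11 and 11.2% of the counts in ripe fruit, against 20.3, 19.6 and 20.8% in unripe fruit. TRINITY_DN6396_c0_g1 held 2.96, 2.68 and 2.42% in ripe fruit, against 4.45, 4.01 and 4.29% in unripe fruit. These were the largest losses, neither set of values overlapped, and together they came to 10.4 of the percentage points that moved. After TMM scaling both were DEGs, with log2 fold changes of -1.89 ± 0.16 (SE, adjusted p = 7.06e-08) and -1.73 ± 0.14 (adjusted p = 3.99e-08). Scaled by library size alone their log2 fold changes were -0.82 and -0.66, short of the threshold.

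The largest gain was that of TRINITY_DN176_c5_g1, which held 1.33, 1.29 and 1.84% of the counts in ripe fruit, against 0.00907, 0.00686 and 0.00686% in unripe fruit. Its log2 fold change of 6.55 ± 0.21 (adjusted p = 1.65e-12) was carried by all 4 of its tested transcripts. TRINITY_DN16477_c0_g1 came second in gain, with 12.3, 11.1 and 9.65% in ripe fruit and 9.90, 9.78 and 10.4% in unripe fruit. Its shares overlapped between the stages. After TMM scaling its log2 fold change was -0.93 ± 0.15 (adjusted p = 7.59e-05), short of the fold threshold, so it was not a DEG. The sign turned with the scaling, to 0.14 by library size alone. It was the most abundant gene of ripe replicates 1 and 2, and in unripe fruit it came after TRINITY_DN150_c0_g1.

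Of the 28998 genes tested, 7492 (25.8%) were DEGs between ripe and unripe ‘1B’ fruit. Of all genes tested, 4540 (15.7%) were higher and 2952 (10.2%) were lower in ripe fruit. The split depends on the scaling, because the TMM factors of the ripe libraries were 1.39 to 1.54 and those of the unripe libraries 0.677 to 0.6997. Over all tested genes the log2 fold changes had a median of 0.21 with TMM factors, against 1.28 by library size alone. By library size alone 12594 genes were higher and 1086 lower, and with the median set to 0 the counts were 3576 higher and 3768 lower. DESeq2 gave 3936 higher and 3226 lower.

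The direction also went with abundance. Among the 6797 genes with a mean of at least 10 CPM, 245 were higher and 1189 lower in ripe fruit, with a median log2 fold change of -0.59. Among the 849 genes of at least 100 CPM, 47 were higher and 201 lower, with a median of -0.80. By library size alone those medians were 0.48 and 0.27, with 915 higher and 375 lower at 10 CPM and 125 higher and 74 lower at 100 CPM. The direction of the majority of abundant genes therefore turned with the scaling, and the order of the medians did not. Very large changes were found in both directions, with 404 genes above a log2 fold change of 5 and 226 genes below -5. Among genes with a mean of at least 1 CPM these counts were 115 and 147, and at 10 CPM 38 and 67. The excess of very large rises therefore lay among genes under 1 CPM.

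All 77 named genes had enough counts to be tested. DEGs among them numbered 31 (40.3%, against 25.8% of all genes), 16 higher and 15 lower in ripe fruit, with a median log2 fold change of 0.02 over the 77. The levels of 70 of the 77 did not overlap between the 3 ripe and 3 unripe fruits, where 72.0% of all genes did not overlap. Absence of overlap was also a condition for choosing the DEGs described in full below, so for those it is not further evidence. By library size alone all 16 higher genes were still DEGs, while 4 of the 15 lower genes were, although all 15 still had a negative log2 fold change. With the median set to 0, 14 of the 16 and all 15 were DEGs. The 77 genes together took 1.78 ± 0.12% of the counts in ripe fruit and 1.63 ± 0.096% in unripe fruit (SD, n = 3 each).

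**Figure D2:**
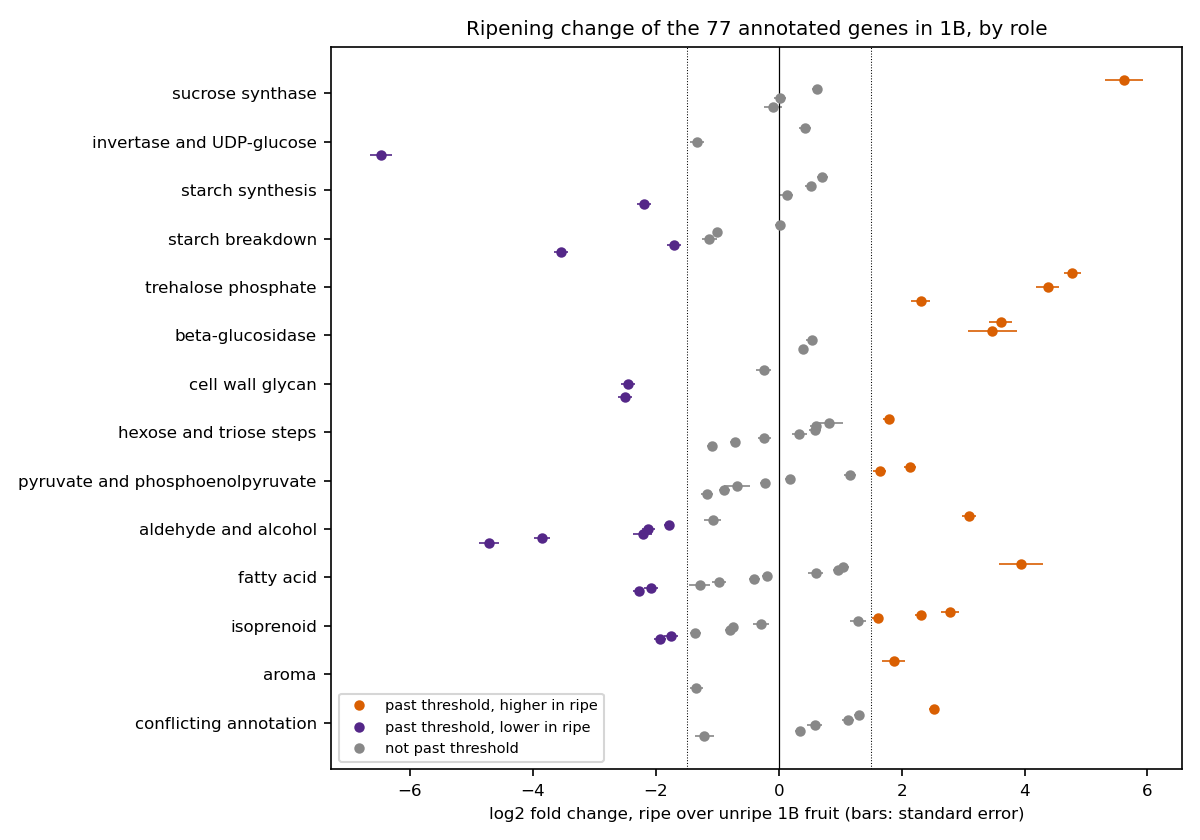
log2 fold change of ripe over unripe ‘1B’ fruit for each of the 77 named genes, grouped by role, with the standard error as a bar and dotted lines at -1.5 and 1.5. All 3 genes of trehalose phosphate are right of the threshold, and 5 of 7 genes of aldehyde and alcohol metabolism are left of it. Of all genes tested, 15.7% were DEGs higher in ripe fruit and 10.2% DEGs lower.

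Among the named genes of sucrose-splitting enzymes, 1 sucrose synthase was higher and the vacuolar invertase lower, and the others were not DEGs. Sucrose synthase, which converts sucrose and UDP to fructose and UDP-glucose in a reversible reaction, had 4 genes. Of these 1 was higher and none lower (25%, near the 25.8% of all genes). Sucrose synthase 2 (TRINITY_DN775_c0_g1) had 4.48, 4.52 and 6.69 CPM in ripe fruit, against 0.0519, 0.0759 and 0.189 CPM in unripe fruit. It was close to undetected in all 3 unripe fruits, and the fitted level was 49.1-fold higher in ripe fruit (log2 fold change 5.62 ± 0.32, adjusted p = 7.2e-10). All 3 of its tested transcripts were higher. Per length its level in ripe fruit was 1.85 TMM-scaled TPM (abundance per transcript length, from the deposited table). On that scale sucrose synthase 3-like (TRINITY_DN775_c0_g2) had 39.6 and sucrose synthase 5 had 2.12. Sucrose synthase 2 was thus low beside the former and near the latter. The gene chosen for RT-qPCR, sucrose synthase (TRINITY_DN775_c0_g3), had 46.2, 48.0 and 37.8 CPM in ripe fruit, against 42.8, 45.6 and 41.5 CPM in unripe fruit. The stages overlapped and its log2 fold change was 0.02 ± 0.094 (adjusted p = 0.84), with a sign that turned under other scalings. It was 1.1 by library size alone (adjusted p = 4.03e-08), and limma on TMM-scaled TPM gave 0.76 and 0.82 with 1 and 0.1 added before the logarithm (adjusted p = 0.000128 and 0.000164), all short of the fold threshold. Sucrose synthase 3-like (0.63) and sucrose synthase 5 (-0.10) were not DEGs either, although by library size alone sucrose synthase 3-like was a DEG, higher in ripe fruit (1.70). Apart from sucrose synthase 5, these genes belong to 1 Trinity cluster and may share reads, so the split of counts among them is uncertain.

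Vacuolar acid invertase (TRINITY_DN3457_c0_g1), which hydrolyses stored sucrose, had 0.623, 0.597 and 0.276 CPM in ripe fruit, against 40.5, 48.3 and 46.8 CPM in unripe fruit. It was nearly lost from every ripe fruit, and its fitted level was 89.0-fold lower in ripe fruit (log2 fold change -6.48 ± 0.18, adjusted p = 3.85e-13). No other named gene had as large a change in either direction. The invertase bound to the cell wall, named insoluble isoenzyme 1 (TRINITY_DN1273_c2_g1), was the most abundant named gene per length in ripe fruit (2008 TMM-scaled TPM), with 3474 CPM in ripe fruit and 8763 CPM in unripe fruit on average. Its log2 fold change of -1.34 ± 0.12 did not reach the threshold. It passed the threshold with the median set to 0 (-1.55), and by library size alone it was only -0.27. UTP-glucose-1-phosphate uridylyltransferase, which makes UDP-glucose from glucose 1-phosphate, had a log2 fold change of 0.43 and was not a DEG. By library size alone it was just past the threshold, higher in ripe fruit (1.502).

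Of 4 genes of starch synthesis 1 was lower and none higher in ripe fruit, and of 5 genes of starch breakdown 2 were lower and none higher. Those shares, 25 and 40%, stand beside 25.8% of all genes. By library size alone 2 genes of starch synthesis, the ADP-glucose pyrophosphorylase subunit (1.78) and the branching enzyme (1.59), were higher and none lower, and 1 gene of starch breakdown was lower and none higher. The amylose-forming enzyme, granule-bound starch synthase 1 (TRINITY_DN5853_c0_g2), had 7.02, 6.64 and 4.97 CPM in ripe fruit, against 28.9, 29.3 and 27.1 CPM in unripe fruit (log2 fold change -2.19 ± 0.11, adjusted p = 3.01e-10). The stages were well apart, although neither of its 2 tested transcripts was past the threshold alone, and by library size the value was -1.12. The large subunit of ADP-glucose pyrophosphorylase (0.71), starch synthase 4 (0.13) and a branching enzyme (0.52) had log2 fold changes above 0 and were not DEGs. The disproportionating enzyme DPE1 (TRINITY_DN260_c0_g1), a 4-alpha-glucanotransferase that rearranges short glucan chains left by starch breakdown, had 5.21, 5.596 and 7.36 CPM in ripe fruit, against 70.8, 73.9 and 66.5 CPM in unripe fruit. No ripe fruit came near an unripe one, and the fitted level was 11.6-fold lower in ripe fruit (log2 fold change -3.54 ± 0.12, adjusted p = 3.15e-12).

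Isoamylase 3 (TRINITY_DN5599_c0_g1), a debranching enzyme of starch breakdown, had 3.32, 3.69 and 2.98 CPM in ripe fruit, against 11.4, 11.4 and 9.76 CPM in unripe fruit. It was lower in every ripe fruit (log2 fold change -1.70 ± 0.11, adjusted p = 3.5e-09), but a test against the fold threshold itself gave an adjusted p of 0.0815, and by library size alone the value was -0.63. Alpha-amylase 3 (-0.998) and beta-amylase 7 (-1.13) were not DEGs, and the H isozyme of alpha-glucan phosphorylase was nearly level at 198 CPM in ripe fruit and 194 CPM in unripe fruit.

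The 3 named genes of trehalose phosphate were all higher in ripe fruit, as were 15.7% of all genes tested. Trehalose 6-phosphate is a sugar signal that in plants follows the level of sucrose, and it is made by a synthase and removed by phosphatases. Trehalose-phosphate synthase 1-like (TRINITY_DN4138_c2_g1) had 6.07, 6.19 and 5.15 CPM in ripe fruit, against 0.311, 0.303 and 0.216 CPM in unripe fruit (log2 fold change 4.38 ± 0.19, adjusted p = 3.81e-11). Trehalose-phosphate phosphatase D (TRINITY_DN2555_c0_g1) had 29.5, 29.1 and 23.7 CPM in ripe fruit, against 0.909, 1.11 and 0.973 CPM in unripe fruit (4.78 ± 0.13, adjusted p = 5.23e-13). All 7 of its tested transcripts were higher. Trehalose-phosphate phosphatase F (TRINITY_DN1847_c0_g1) had 4.29, 4.09 and 3.90 CPM in ripe fruit, against 0.960, 0.835 and 0.676 CPM in unripe fruit (2.31 ± 0.16, adjusted p = 7.15e-09). The RNA of the named synthase and of both named phosphatases was thus higher together, and phosphatase D had the largest of these changes (27.4-fold higher in ripe fruit by the fit).

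Of 4 beta-glucosidase genes 2 were higher and none lower (50%, beside 25.8% of all genes). Beta-glucosidases release glucose from beta-linked glycosides, among them cell wall fragments and bound aroma compounds. The BoGH3B-like gene (TRINITY_DN3108_c0_g1) had 24.0, 25.2 and 17.3 CPM in ripe fruit, against 1.45, 2.45 and 1.51 CPM in unripe fruit. The fitted level was 12.2-fold higher in ripe fruit (log2 fold change 3.61 ± 0.18, adjusted p = 2.38e-10). The beta-glucosidase 31-like gene (TRINITY_DN3009_c0_g1) had 5.19, 5.0 and 13.2 CPM in ripe fruit, against 0.779, 0.405 and 0.919 CPM in unripe fruit (3.48 ± 0.40, adjusted p = 2.23e-06). Ripe replicate 3 stood far above the other ripe fruits, and all 3 were still above every unripe fruit.

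The beta-glucosidase 42-like gene (TRINITY_DN1938_c0_g1) had 27.98, 26.7 and 28.2 CPM in ripe fruit, against 19.8, 21.1 and 21.9 CPM in unripe fruit. The stages did not overlap, but the log2 fold change of 0.40 ± 0.078 (adjusted p = 0.000374) was far below the threshold. Beta-glucosidase 41 (TRINITY_DN150_c2_g1), by far the most abundant of the 4, had a log2 fold change of 0.53 and was not a DEG. By library size alone it was a DEG, higher in ripe fruit (1.605). The single listed transcripts of the 31-like and 42-like genes, which were targets of RT-qPCR, had no count in any of the 6 ‘1B’ libraries, so the values of these genes come from other transcripts of the same Trinity gene.

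Of 3 genes of cell wall glycans 2 were lower and none higher (66.7%, beside 25.8% of all genes). Endoglucanase 25-like (TRINITY_DN2388_c0_g1), whose relative in Arabidopsis takes part in cellulose synthesis, had 6.01, 6.01 and 5.09 CPM in ripe fruit, against 34.9, 34.6 and 27.7 CPM in unripe fruit (log2 fold change -2.50 ± 0.11, adjusted p = 4.4e-11). Endo-beta-mannosidase 7 (TRINITY_DN4654_c1_g1), which cuts mannans of the wall, had 7.22, 7.25 and 9.55 CPM in ripe fruit, against 39.8, 48.7 and 43.1 CPM in unripe fruit (-2.46 ± 0.12, adjusted p = 1.09e-10). Both were clear of overlap, and by library size alone they fell just short of the threshold at -1.43 and -1.39. Glucan endo-1,3-beta-glucosidase 3 had a log2 fold change of -0.25 (adjusted p = 0.0782).

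**Figure D3:**
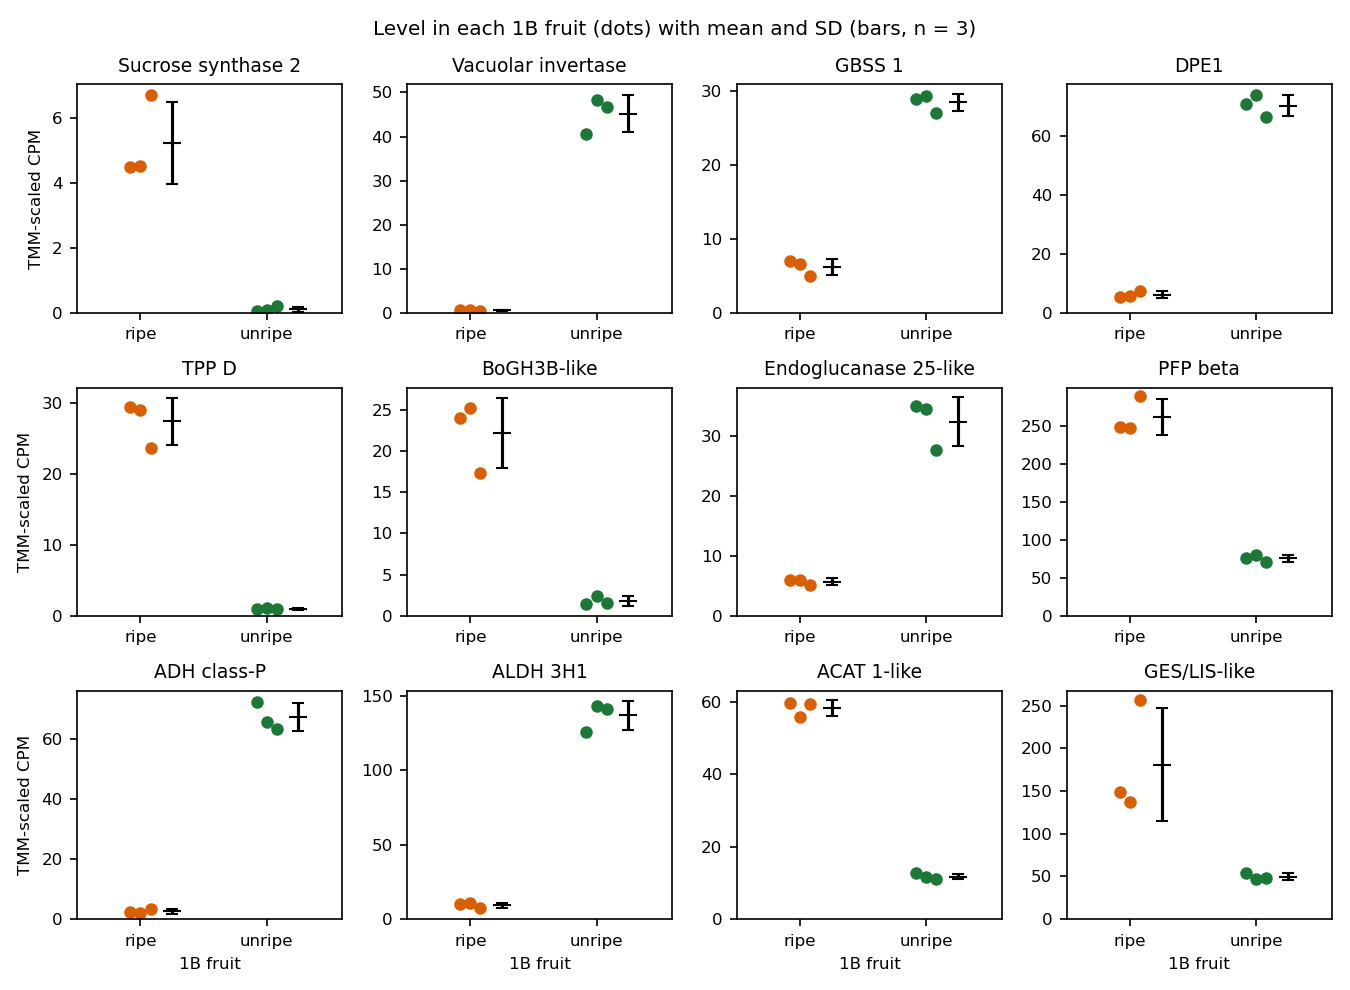
TMM-scaled CPM of 12 of the described genes in each ripe (left) and unripe (right) ‘1B’ fruit, with the mean and SD of 3 fruits as a bar and every axis starting at 0. All 12 were chosen among DEGs whose stages do not overlap, as those of 72.0% of all genes tested did not. The bar of the ripe fruits is widest for the GES/LIS-like gene, where ripe replicate 3 stands at 257 CPM.

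Of the 8 genes for the steps between hexoses and trioses, 1 was higher and none lower (12.5%, below the 25.8% of all genes). By library size alone 4 were higher and none lower, beside 12594 higher of all 28998 genes. The beta subunit of the pyrophosphate-dependent phosphofructokinase (TRINITY_DN2802_c0_g1), which adds or removes a phosphate group of fructose phosphates with pyrophosphate, had 249, 247 and 289 CPM in ripe fruit, against 76.5, 79.5 and 70.7 CPM in unripe fruit. Every ripe fruit was above every unripe fruit and the fitted level was 3.46-fold higher in ripe fruit (log2 fold change 1.79 ± 0.093, adjusted p = 2.9e-10). The other 7, among them a cytosolic aldolase (-0.23), xylose isomerase (-0.71) and a pair of phosphoglycerate mutases (0.81 and -1.08), were not DEGs with TMM factors.

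At the entry and exit of the pyruvate pool 2 of 8 genes were higher and none lower (25%, near the 25.8% of all genes). By library size alone 3 were higher and none lower. Pyruvate, phosphate dikinase (TRINITY_DN15218_c0_g1), which can make phosphoenolpyruvate from pyruvate, had 89.3, 88.2 and 74.9 CPM in ripe fruit, against 18.8, 20.4 and 18.2 CPM in unripe fruit (log2 fold change 2.14 ± 0.093, adjusted p = 4.66e-11). Plastidial pyruvate kinase 2 (TRINITY_DN1288_c0_g1), which runs the other way and feeds fatty acid synthesis, had 91.1, 88.0 and 117 CPM in ripe fruit, against 32.6, 32.2 and 30.1 CPM in unripe fruit (1.64 ± 0.11, adjusted p = 3.59e-09). The stages of both genes did not overlap, although the call for the kinase was lost without ripe replicate 3 (1.47) and with the median set to 0 (1.43), and a test against the fold threshold itself gave an adjusted p of 0.177. Phosphoenolpyruvate carboxykinase, an abundant gene of gluconeogenesis at 459 CPM in ripe fruit and 1033 CPM in unripe fruit, had a log2 fold change of -1.17 and was not a DEG. By library size alone its value was -0.10.

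Among the genes of aldehyde and alcohol metabolism 5 of 7 were lower and 1 was higher in ripe fruit. That made 85.7%, beside 25.8% of all genes. Alcohol dehydrogenase class-P (TRINITY_DN1848_c0_g1), which interconverts acetaldehyde and ethanol, had 2.29, 1.92 and 3.51 CPM in ripe fruit, against 72.3, 65.7 and 63.2 CPM in unripe fruit. The fitted level was 26.2-fold lower in ripe fruit (log2 fold change -4.71 ± 0.17, adjusted p = 5.01e-12). Pyruvate decarboxylase 1 (TRINITY_DN81_c0_g1), which supplies the acetaldehyde, had 9.49, 9.53 and 8.96 CPM in ripe fruit, against 34.8, 31.1 and 30.9 CPM in unripe fruit (-1.79 ± 0.084, adjusted p = 9.75e-11). The decarboxylase was not a DEG by library size alone (-0.72).

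Aldehyde dehydrogenases oxidise aldehydes to acids. Member 3H1 (TRINITY_DN2110_c2_g1) had 10.3, 10.5 and 7.53 CPM in ripe fruit, against 126, 143 and 142 CPM in unripe fruit (log2 fold change -3.85 ± 0.13, adjusted p = 2.15e-12). Members 2B4 (TRINITY_DN1403_c0_g1) and 2B7 (TRINITY_DN1920_c0_g1) were lower too, at -2.12 ± 0.11 (adjusted p = 3.71e-10) and -2.21 ± 0.16 (adjusted p = 9.04e-09), and member 3F1 had -1.08 and was not a DEG. The exception was a plastidial aldo-keto reductase (TRINITY_DN3366_c0_g1), an enzyme that reduces aldehydes with NADPH. It had 26.3, 26.5 and 30.3 CPM in ripe fruit, against 3.63, 2.91 and 3.19 CPM in unripe fruit (3.09 ± 0.11, adjusted p = 4.37e-12), and its groups were far apart. By library size alone 2 of these 5 lower genes, the alcohol dehydrogenase (-3.65) and member 3H1 (-2.77), were still DEGs.

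Of 10 fatty acid genes 1 was higher and 2 were lower (30%, near the share of all genes), and by library size alone 4 were higher and none lower. Long chain acyl-CoA synthetase 2 (TRINITY_DN1831_c0_g1), which activates fatty acids and in Arabidopsis serves cutin formation, had 73.4, 71.8 and 81.4 CPM in ripe fruit, against 401, 345 and 354 CPM in unripe fruit (log2 fold change -2.28 ± 0.095, adjusted p = 2.67e-11). Peroxisomal 3-ketoacyl-CoA thiolase 2 (TRINITY_DN1817_c0_g1), the last step of beta-oxidation, had 318, 324 and 415 CPM in ripe fruit, against 1561, 1462 and 1424 CPM in unripe fruit (-2.07 ± 0.11, adjusted p = 5.94e-10). Both were lower in every ripe fruit, and by library size alone they stood at -1.21 and -1.01. Palmitoyl-protein thioesterase 1-like (TRINITY_DN7518_c0_g1), which removes fatty acyl groups from proteins, had 1.102, 1.19 and 1.41 CPM in ripe fruit, against 0.0519, 0.0506 and 0.135 CPM in unripe fruit (3.94 ± 0.35, adjusted p = 1.39e-07). The 3 subunit genes of plastidial acetyl-CoA carboxylase, which starts fatty acid synthesis, had log2 fold changes of 1.05, -0.98 and 0.96, and a stearoyl-ACP desaturase had -1.29, none of them a DEG.

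Of 10 isoprenoid genes 3 were higher and 2 lower (50%, beside 25.8% of all genes), and both directions were found within the mevalonate pathway. Scaled by library size alone, 4 were higher and none lower, with acetyltransferase 2 at -0.68 and MVD2 at -0.86. Cytosolic acetyl-CoA acetyltransferase 1-like (TRINITY_DN1293_c0_g1), which opens the pathway by joining acetyl-CoA units, had 59.7, 55.8 and 59.6 CPM in ripe fruit, against 12.6, 11.7 and 10.97 CPM in unripe fruit (log2 fold change 2.31 ± 0.086, adjusted p = 8.47e-12). Its relative acetyltransferase 2 (TRINITY_DN5472_c0_g1) had 3.08, 2.38 and 2.77 CPM in ripe fruit, against 9.22, 9.10 and 9.35 CPM in unripe fruit (-1.75 ± 0.11, adjusted p = 3.13e-09). Per length the first had 56.9 TMM-scaled TPM in ripe fruit and the second 0.968, so the 2 genes of the same step differed in level as well as in direction.

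Further along the pathway, diphosphomevalonate decarboxylase MVD2 (TRINITY_DN12097_c0_g1), which forms isopentenyl diphosphate, had 5.08, 5.73 and 4.93 CPM in ripe fruit, against 22.2, 19.9 and 18.2 CPM in unripe fruit (log2 fold change -1.94 ± 0.10, adjusted p = 2.76e-10). Farnesyl pyrophosphate synthase 1 (TRINITY_DN970_c0_g1), which builds the precursor of sesquiterpenes, was higher (1.61 ± 0.089, adjusted p = 5.69e-10). Its call was lost with the median set to 0 (1.396). Farnesylcysteine lyase (TRINITY_DN4683_c0_g1), which recycles farnesyl groups from degraded proteins, had 12.2, 13.0 and 16.7 CPM in ripe fruit, against 2.08, 1.77 and 2.22 CPM in unripe fruit (2.79 ± 0.14, adjusted p = 2.49e-10). Its ripe and unripe fruits did not overlap.

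In the plastid pathway no named gene was a DEG with TMM factors. Deoxyxylulose-phosphate synthase 2 (TRINITY_DN6873_c0_g1), its first enzyme, averaged 725 CPM in ripe fruit and 297 CPM in unripe fruit, with a log2 fold change of 1.29 ± 0.14 (adjusted p = 7.55e-07). The later enzymes hydroxymethylbutenyl diphosphate synthase and reductase had -1.36 and -0.29. By library size alone deoxyxylulose-phosphate synthase 2 was a DEG, higher in ripe fruit (2.35). With the median set to 0 the hydroxymethylbutenyl diphosphate synthase was a DEG, lower in ripe fruit (-1.57).

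The Trinity gene behind the linalool-type terpene synthases, TRINITY_DN2620_c0_g1, was higher in ripe fruit. Its transcripts carry the names of both a geranyllinalool synthase (GES) and an S-linalool synthase (LIS), enzymes that make scented tertiary alcohols from prenyl diphosphates, so its sum may pool closely related genes. It had 149, 138 and 257 CPM in ripe fruit, against 54.1, 47.0 and 47.7 CPM in unripe fruit (log2 fold change 1.87 ± 0.18, adjusted p = 3.34e-07). All ripe fruits were above all unripe ones, but replicate 3 lay far above the rest, and without it the log2 fold change was 1.499, just under the threshold. The test against the fold threshold itself gave an adjusted p of 0.0527. Most of the sum was 1 transcript that is not on the list, with 134 CPM in ripe fruit and 26.3 CPM in unripe fruit. The listed GES transcript had 1.71, 2.03 and 3.00 CPM in ripe fruit, against 0.571, 1.19 and 0.757 CPM in unripe fruit, and was differentially expressed on its own (1.54 ± 0.40, adjusted p = 0.0377), as were 18.8% of all transcripts tested. The listed LIS transcript had 1.96, 2.00 and 5.68 CPM in ripe fruit, against 2.28, 1.69 and 1.08 CPM in unripe fruit, with overlapping stages and a log2 fold change of 1.05 (adjusted p = 0.22).

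Benzyl alcohol O-benzoyltransferase-like (BAO, TRINITY_DN4842_c0_g1), which forms benzyl benzoate, was among the most abundant named genes. It had 2048, 2000 and 2233 CPM in ripe fruit, against 5088, 5619 and 5211 CPM in unripe fruit. Every ripe fruit was below every unripe fruit, but the log2 fold change of -1.34 ± 0.11 (adjusted p = 2.81e-08) did not reach the threshold. It passed the threshold with the median set to 0 (-1.56), and by library size alone it was only -0.27. Among the 6 genes whose transcripts bear conflicting names 1 was higher (16.7%, below the 25.8% of all genes), and by library size alone 4 were. The gene higher with TMM factors was TRINITY_DN221_c1_g2, named either a glucose-6-phosphate 1-epimerase or a pentatricopeptide repeat protein. It had 81.4, 81.3 and 81.9 CPM in ripe fruit, against 15.03, 12.9 and 14.6 CPM in unripe fruit (2.52 ± 0.086, adjusted p = 3.49e-12).

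Ripening of ‘1B’ was compared with ripening of ‘RB1’ by the interaction of variety and stage in edgeR, over 11 libraries. The original tests set aside a ripe ‘RB1’ library near the unripe group without giving its number. Ripe replicate 3 was taken to be that library and left out, since 9.50 to 13.28% of the counts differed between it and the unripe ‘RB1’ libraries and 26.65 to 32.05% between it and the other ripe ones, while ripe replicates 1 and 2 differed from unripe fruit by 26.25 to 32.67% and from each other by 11.17%. The change with ripening differed between the varieties for 12145 of 36566 genes tested (33.2%) and for 39 of the 77 named genes (50.6%). With that library kept, 7257 genes differed. The differences had a median of 0.47 on the log2 scale over all genes, in the direction of a higher change in ‘1B’. This median was taken with TMM factors, and the median change in ‘1B’ alone moved from 0.21 to 1.28 by library size. Of the 31 named DEGs of ‘1B’, 7 were DEGs in the same direction in ‘RB1’, 8 in the opposite direction and 15 were not DEGs there, and 1 was not tested. Over all genes, 963 of the 5401 DEGs of ‘1B’ tested in ‘RB1’ were DEGs in the same direction there and 633 in the opposite one, and 19.3% of all genes tested in ‘RB1’ were DEGs. The interaction passed the threshold for 11 of the 16 higher and 12 of the 15 lower genes.

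Sucrose synthase 2 had the widest gap. With all 12 libraries scaled together it had 4.80, 5.05 and 6.97 CPM in the ripe ‘1B’ fruits, against 0.0526, 0.0770 and 0.188 CPM in the unripe ones, whereas ‘RB1’ had 0.865 and 0.562 CPM in ripe replicates 1 and 2 and 10.5, 10.7 and 12.4 CPM in unripe fruit. The ‘RB1’ ripe replicate left out had 17.6 CPM. Ripe ‘1B’ was thus above unripe ‘1B’ where ripe ‘RB1’ was below unripe ‘RB1’, and the log2 fold changes differed by 9.48 ± 0.37 (adjusted p = 4.46e-20). Granule-bound starch synthase 1 showed the reverse, with 7.52, 7.41 and 5.18 CPM in the ripe ‘1B’ fruits and 29.3, 29.7 and 26.8 CPM in the unripe ones, against 48.6 and 33.2 CPM in ripe ‘RB1’ (1.68 CPM in the library left out) and 4.12, 3.22 and 2.79 CPM in unripe ‘RB1’. The difference was -5.85 ± 0.20 (adjusted p = 1.89e-21).

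The other 6 genes with opposite directions were the beta-glucosidase 31-like gene, the pyrophosphate-dependent phosphofructokinase and plastidial pyruvate kinase 2, higher in ripe ‘1B’ and lower in ripe ‘RB1’, and endoglucanase 25-like, isoamylase 3 and aldehyde dehydrogenase 2B7, lower in ripe ‘1B’ and higher in ripe ‘RB1’. Aldehyde dehydrogenase 2B7 had 8.65, 8.19 and 4.78 CPM in the ripe ‘1B’ fruits and 28.8, 30.8 and 33.9 CPM in the unripe ones, against 240 and 189 CPM in ripe ‘RB1’ (3.72 CPM in the library left out) and 9.72, 9.19 and 9.44 CPM in unripe ‘RB1’. Vacuolar invertase differed in size rather than direction, with log2 fold changes of -6.48 in ‘1B’ and -1.07 in ‘RB1’ (interaction -5.37 ± 0.22, adjusted p = 1.83e-19). Ripe ‘RB1’ still had 10.97 and 10.7 CPM of it, and unripe ‘RB1’ 26.5, 22.2 and 21.7 CPM.

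The genes that were DEGs in the same direction in both varieties were trehalose-phosphate synthase 1-like, the BoGH3B-like beta-glucosidase, acetyl-CoA acetyltransferase 1-like and farnesyl pyrophosphate synthase 1, which were higher, and endo-beta-mannosidase 7, aldehyde dehydrogenase 3H1 and 3-ketoacyl-CoA thiolase 2, which were lower. For the mannosidase the change was -2.46 in ‘1B’ and -2.66 in ‘RB1’ (interaction 0.21 ± 0.30, adjusted p = 0.59), and for the thiolase it was -2.07 and -1.96 (interaction -0.07 ± 0.19, adjusted p = 0.779).

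**Figure D4:**
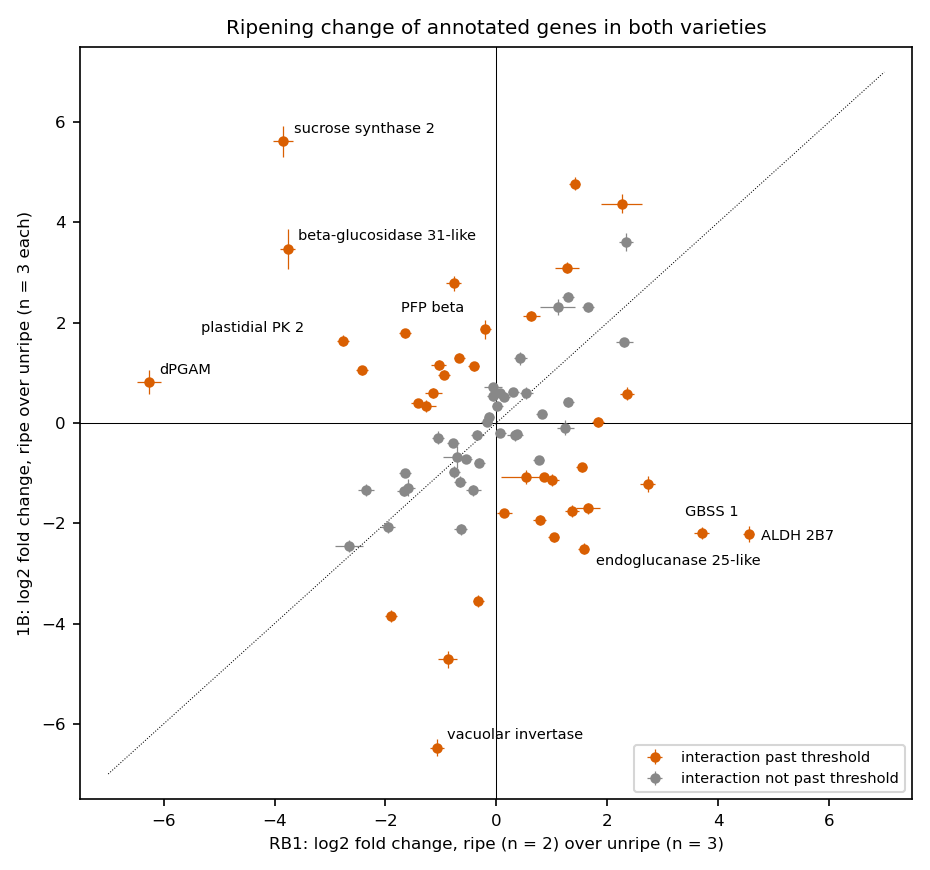
log2 fold change of ripe over unripe fruit in ‘1B’ (vertical) against that in ‘RB1’ (horizontal) for the named genes tested in both, with standard errors as bars and a dotted line of equal change. Orange points are genes whose change differed between the varieties past the threshold, 39 of 77 in all including a gene not tested in ‘RB1’, and sucrose synthase 2 lies farthest above the line.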

How the data were processed

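Fruit flesh RNA of the 12 fruits was sequenced on an Illumina NovaSeq. The authors trimmed reads with bbduk and Trimmomatic 0.40, checked them with FastQC 0.11.9, assembled both varieties together de novo with Trinity, and quantified each transcript with Salmon. The deposited expected counts (estimated counts, not whole numbers) are not normalized. The deposited signal table holds TPM from Salmon that the authors scaled by TMM factors over the 12 libraries, so its columns do not sum to 1 total.

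Counts were summed per Trinity gene and rounded. Tests used edgeR 4.0.16 in R 4.3.3 (filterByExpr, TMM, quasi-likelihood, Benjamini-Hochberg over all tested genes), fitted on the 6 ‘1B’ libraries or, for the interaction, on 11, and were tested on simulated data. Composition was computed with Python 3.11.15 and tested by exact permutation. Signal values served to compare levels between genes and in limma 3.58.1. Alternatives were other scalings, filters, tools (DESeq2 1.42.0, the edgeR exact test, limma, glmTreat) and samples, a replicate block, transcripts in place of gene sums, and each library left out.

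Reads that fit several transcripts are divided among them by Salmon, so isoform values are less certain than gene sums. Described in full were, per role, up to 3 DEGs with the largest change and no overlap between stages, the 7 Trinity genes behind the 8 RT-qPCR targets, and the unnamed genes with the 2 largest gains and 2 largest losses of share, and other listed genes are named with their value. The members and lists were chosen with earlier results of these data known. RT-qPCR values and transcript sequences were not analysed here.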

Additional observations from a re-analysis of the deposited data

Results flagged for a closer look

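For 39 named genes and 2 unnamed genes described in full, the change with ripening differed between ‘1B’ and ‘RB1’ by edgeR's interaction test, given as the log2 fold change in ‘1B’ minus that in ‘RB1’. Among the genes described in full, the differences above 0 were 9.48 for sucrose synthase 2, 9.47 for the unnamed TRINITY_DN176_c5_g1, 7.27 for the beta-glucosidase 31-like gene, 6.80 for palmitoyl-protein thioesterase 1-like, 4.45 for plastidial pyruvate kinase 2, 3.58 for farnesylcysteine lyase, 3.48 for the pyrophosphate-dependent phosphofructokinase and 3.40 for trehalose-phosphate phosphatase D. Smaller ones were 2.18 for trehalose-phosphate synthase 1-like, 2.12 for the GES/LIS-like gene, 1.84 for the aldo-keto reductase and 1.84 for the beta-glucosidase 42-like gene, and 1.55 for pyruvate, phosphate dikinase. The differences below 0 among them were -5.85 for granule-bound starch synthase 1, -5.37 for vacuolar invertase, -4.04 for endoglucanase 25-like, -3.81 for alcohol dehydrogenase class-P, -3.33 for isoamylase 3, -3.27 for long chain acyl-CoA synthetase 2, -3.17 for DPE1, -2.83 for the unnamed TRINITY_DN6396_c0_g1 and -2.68 for MVD2. They were -1.92 for aldehyde dehydrogenase 3H1 and -1.77 for the sucrose synthase gene TRINITY_DN775_c0_g3. Among the other named genes aldehyde dehydrogenase 2B7 had -6.72 (adjusted p = 9.45e-23), the most negative difference of the 41 genes, and the 2,3-bisphosphoglycerate-dependent phosphoglycerate mutase had 7.10. The rest above 0 were 3.52 for the alpha subunit of acetyl-CoA carboxylase, 2.23 for pyruvate kinase isozyme A, 2.02 for leucine-tRNA ligase, 1.95 for biotin carboxyl carrier protein 1, 1.77 for phosphofructokinase 6-like, 1.63 for phosphoglycerate kinase-like and 1.59 for VOZ2-like. The rest below 0 were -3.90 for TRINITY_DN7525_c0_g1, which has conflicting names, -3.07 for acetyl-CoA acetyltransferase 2, -2.38 for pyruvate kinase isozyme G, -2.09 for beta-amylase 7, -1.90 for pyruvate decarboxylase 1, -1.90 for the 2,3-bisphosphoglycerate-independent phosphoglycerate mutase, -1.73 for glycolipid transfer protein 3 and -1.61 for aldehyde dehydrogenase 3F1.

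The adjusted p was 0.0181 for the thioesterase, which had too few counts to be tested in ‘RB1’ alone, and its call was lost without ‘RB1’ ripe replicate 1 (adjusted p = 0.136) or ‘RB1’ unripe replicate 2 (difference 3.995, adjusted p = 1). The call for TRINITY_DN6396_c0_g1 (adjusted p = 0.0158) rested on ‘RB1’ ripe replicate 1, without which the difference was -0.076 (adjusted p = 0.993). With ‘RB1’ ripe replicate 3 kept, the calls of that gene (-2.40), TRINITY_DN775_c0_g3 (-1.40), the beta-glucosidase 42-like gene (1.25) and the GES/LIS-like gene (1.04) were lost. That of pyruvate, phosphate dikinase was lost with DESeq2 (1.42) and without ‘RB1’ ripe replicate 1 (1.495), ‘RB1’ unripe replicate 1 (1.49) or ‘RB1’ unripe replicate 3 (1.48).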

How the results depend on the processing

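Library size alone gave 13680 DEGs (12594 higher, 1086 lower), no low-count filter 12479 (8415 higher), at least 1 CPM in 2 libraries 4177 (2421 and 1756), and no fold threshold 19402 (10400 and 9002, with 69 named genes). limma on TMM-scaled TPM gave 1855 (1235 and 620) with 1 added before the logarithm and 4501 (1002 lower) with 0.1 added, where the median log2 fold change was 0.43 and 0.54. A test against the fold threshold (glmTreat) gave 3909 (1828 higher), and transcripts gave 13292. With ‘RB1’ ripe replicate 3 kept, 7257 genes had an interaction, against 12145, and 296 were DEGs in ‘RB1’, against 5067. The share of the 10 most abundant genes differed by -12.25 points over transcripts, -15.46 in TMM-scaled TPM, -13.8 for 50 genes, and -5.48 without the most abundant gene, an alternative chosen after seeing the data. The effective number of genes differed by 90.6 in TMM-scaled TPM and by 371 in counts. The remaining alternatives were within 1.5 times of these counts. Leaving out 1 ‘1B’ library gave 7716 to 8508 DEGs. The sucrose synthase gene TRINITY_DN775_c0_g3 turned to -0.060 with RLE factors and with DESeq2, to -0.19 with the median set to 0, and ran from -0.056 to 0.090 with each ‘1B’ library left out in turn, beside 1.1 by library size. TRINITY_DN16477_c0_g1 turned to 0.14 by library size.

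Of 693 values of the 33 described genes under 21 settings, 645 kept their side of the threshold, 36 lost and 4 gained the call and 8 turned. The lost calls were mostly those with limma and 1 added (12), library size alone (9) and limma with 0.1 added (6). The replicate numbers did not pair the fruits (correlations of same-numbered deviations -0.0018, 0.014 and -0.0019), and a replicate block gave 7483 DEGs and 11445 interactions. Every ‘1B’ library had at least 54741003 counts, so depth limits mainly genes under 1 CPM, while the ‘RB1’ changes rest on 2 ripe libraries, 1 of them at 10949150 counts.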

Other observations

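Transcripts of a Trinity gene did not always move together in ‘1B’. Of 13292 transcripts called differentially expressed in edgeR, 7624 lay in a gene called in the same direction, 189 in a gene called in the opposite direction and 5479 in a gene that was not a DEG. Both directions were found among the transcripts of 695 of 11244 genes with several tested transcripts. Deoxyxylulose-phosphate synthase 2, chosen after its values were seen, is an example of transcripts that rose to unlike degrees. Its transcripts called lower were rare, with means of 1.53 and 0.403 CPM in unripe fruit. Its listed transcript had 53.0, 53.2 and 71.1 CPM in ripe fruit and was at 0 in all 3 unripe fruits, while its main transcript had 576, 563 and 836 CPM in ripe fruit, against 322, 292 and 265 CPM in unripe fruit, and was not past the threshold (log2 fold change 1.29). In the cytosolic aldolase gene 1 transcript had 28.9, 29.3 and 33.5 CPM in ripe fruit, against 117, 110 and 95.8 CPM in unripe fruit (-1.69 ± 0.10, adjusted p = 0.000349). The main transcript of that gene had overlapping stages (262, 269 and 324 CPM, against 282, 288 and 243 CPM). Another, called higher, was rare, with means of 1.497 CPM in ripe and 0.367 CPM in unripe fruit.

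Of the listed transcripts, 18 had no count in any ‘1B’ library and 85 had enough to be tested, of which 33 were higher and 11 lower in ripe fruit, where 13292 of all 70876 transcripts tested (18.8%) were differentially expressed. None of these 44 lay in a gene called in the opposite direction, and 22 lay in genes that were not DEGs. Some of those 22 had a sign opposite to that of their gene sum. An example is an acetyl-CoA carboxylase alpha subunit-like transcript at 5.74, against -0.98 for its gene (TRINITY_DN5108_c1_g1).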
